A study of Mus musculus with 2 samples.

Results

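The contactins Cntn1 to Cntn6 and the contactin-associated proteins Cntnap2, Cntnap3, Cntnap4 and Cntnap5c were followed through the cell classes of the embryonic mouse cortex. These 10 genes were chosen by name and family, from the 32285 genes counted, with earlier results of these data known. The family genes Cntnap1, Cntnap5a and Cntnap5b were not among them. Single cells had been taken from the dorsal telencephalon of mouse embryos at embryonic day 14.5, dissociated with papain and sequenced as 2 droplet libraries whose reads come from transcript 3′ ends. Both libraries carry the genotype WT and name the line EomesDot, the study describes C57BL/6J animals, and how the 2 statements relate is not given. They are called replicate 2 and replicate 4 after the last number of their titles. There was 1 group, so no comparison between animals of different genotype or age was possible, and nothing in the labels says whether the libraries came from separate embryos of a litter. All comparisons below are between classes of cells within these libraries.

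Contactins are adhesion molecules of the immunoglobulin superfamily that are held on the outer face of the cell membrane by a lipid anchor. Contactin-associated proteins are transmembrane relatives of the neurexins, and several of them pair with a contactin on the same axon. In neurons the families are known for axon growth and fasciculation, for the assembly of the membrane regions around nodes of Ranvier, and for the formation of synapses. Cntn2 and Cntnap2 form one such pair, which gathers potassium channels of the Shaker type beside the nodes of myelinated axons.

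Replicate 2 held 1712 barcodes with 40267872 UMIs, the molecular tags that each mark 1 captured transcript, and replicate 4 held 2589 barcodes with 49422008. After filtering, 1197 and 1956 cells were retained, with medians of 30810 and 22949 UMIs per cell, and 3 barcodes occurred in both libraries (1 among retained cells). Classes were rebuilt by clustering without the 10 genes and named from marker genes, so they are called X-like. In replicates 2 and 4 there were 232 and 399 cells like radial glia (RGC), 158 and 254 like intermediate progenitors (IPC), 589 and 886 excitatory neuron-like cells, and 54 and 81 interneuron-like cells with markers of the medial ganglionic eminence (MGE), a subpallial source of cortical interneurons. Each of these classes had UMIs of all markers on its own list. RGC-like cells also had UMIs of all IPC and all excitatory neuron markers, so this does not tell classes apart, and names rested on raised markers. None of the 10 genes was used to name a class. Interneuron-like cells with markers of the caudal ganglionic eminence (CGE) numbered 5 and 27. The libraries differed in what they held, since 70 of 71 striatal projection neuron-like cells came from replicate 4. Levels are CPM, the UMIs of a gene per 1e+06 UMIs of the summed cells of a class, and they count captured 3′ ends, so they are compared between classes and never between genes. In each sentence on levels replicate 2 is given before replicate 4. Differences are log2 fold changes ± SE from edgeR's quasi-likelihood test over 14 sums of 7 classes and 13300 genes, with Benjamini-Hochberg adjustment over all genes tested. An adjusted p-value under 0.05 counted as a call, and n = 2 libraries throughout. The p-values measure the spread between these libraries, which may be technical.

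The members share a feature that the choice by name did not use, since 9 of 10 span more than 100 kb of the genome, from 33.8 kb for Cntn2 to 2241 kb for Cntnap2 in the RefSeq genes of mm10. Of 26335 genes of the files with a known span, 9.76% were that long and the median span was 15.4 kb. Cntn3, Cntn6, Cntn4 and Cntnap2 all lie on chromosome 6. Genes over 100 kb together took 25.9% and 26.5% of UMIs in RGC-like cells, 27.3% and 29.2% in IPC-like cells, 34.7% and 37.0% in excitatory neuron-like cells, and 41.2% and 43.6% in MGE interneuron-like cells. Ribosomal protein genes ran the other way, with 11.97% and 10.98%, 11.7% and 9.998%, 7.70% and 6.66%, and 4.33% and 3.11% of UMIs in the same 4 classes. These shares moved with the comparisons below and their part in them was not tested.

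**Figure D1:**
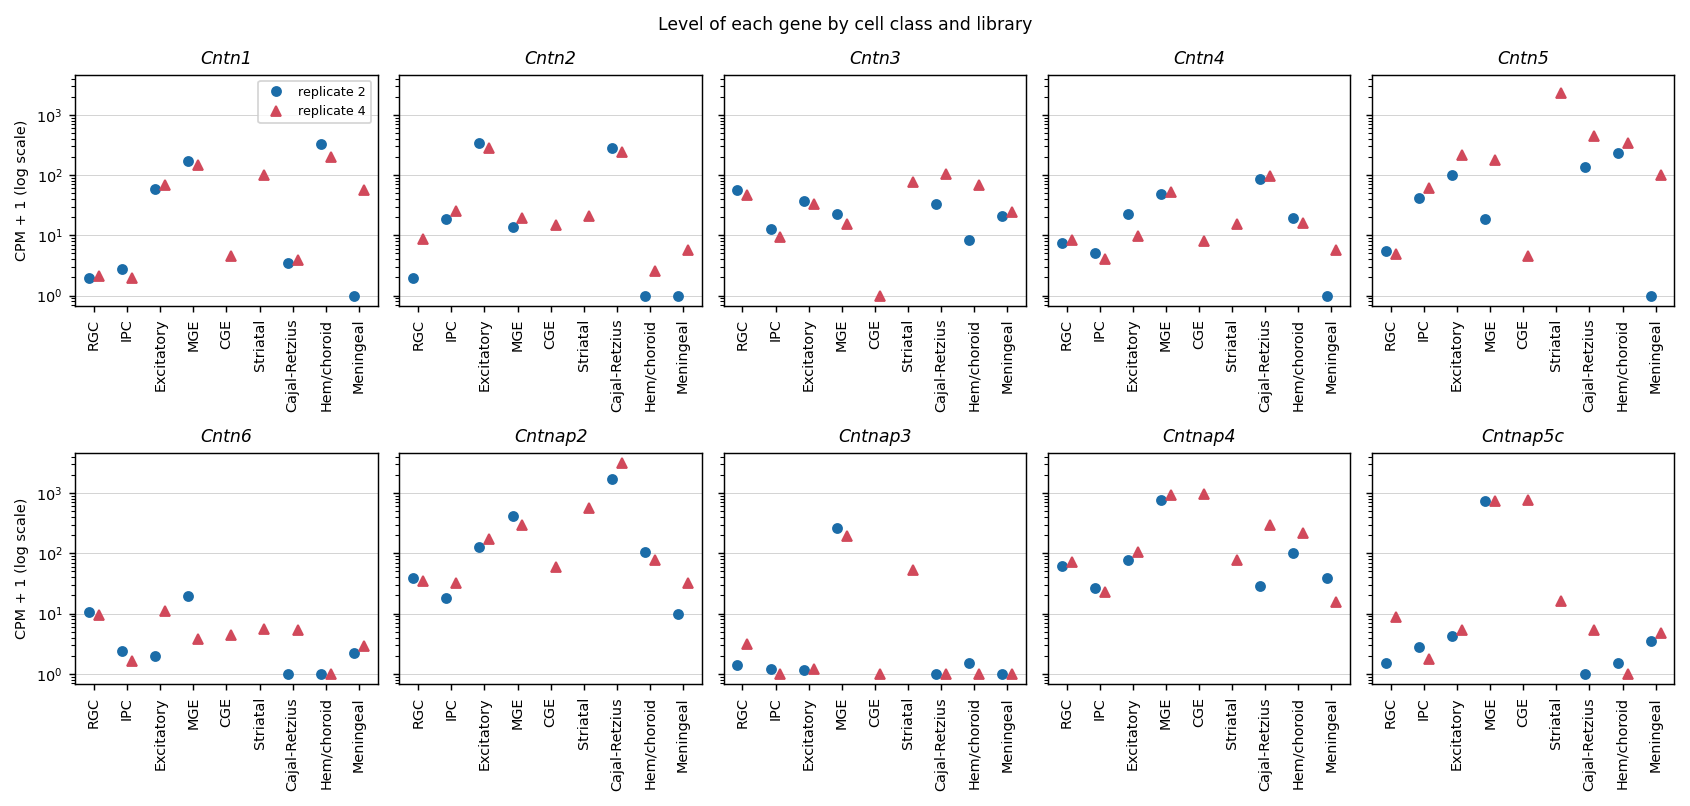
Level of each gene (CPM + 1, logarithmic axis) in 9 cell classes, with 1 panel per gene and 1 point per library. Classes with under 10 cells in a library have no point for it. Cntn2 stood highest in excitatory neuron-like and Cajal-Retzius-like cells, Cntnap3 was near 0 outside MGE interneuron-like and striatal projection neuron-like cells, and Cntnap5c was high in both interneuron-like classes.

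How the contactins changed from progenitors to excitatory neurons was examined first. Against RGC-like cells, 5 of the 10 genes were higher in excitatory neuron-like cells (29.5% of all genes tested were) and 1 was lower (26.6% of all genes were). The 5 were Cntn1, Cntn2, Cntn4, Cntn5 and Cntnap2, and the one that was lower was Cntnap3. The median log2 fold change over the 10 was 1.04, beside 0.04 over all genes. In this fit Cntnap3 and Cntnap5c passed the filter on low counts through MGE interneuron-like cells alone. Cntn6 reached the level the filter asks for in 4 of 14 sums, in both libraries for RGC-like cells only.

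Cntn2 (chr1:132509425-132543251), an axonal glycoprotein known from early cortical projections, was at 339 and 281 CPM in excitatory neuron-like cells, at 17.6 and 24.3 in IPC-like cells and at 0.928 and 7.74 in RGC-like cells. The 3 classes did not overlap between libraries and each step was called. The level was higher in IPC-like than in RGC-like cells by 2.27 ± 0.53 (adjusted p = 0.00640) and higher in excitatory neuron-like than in IPC-like cells by 4.02 ± 0.48 (adjusted p = 4.48e-05). Over both steps the log2 fold change was 6.29 ± 0.54 (adjusted p = 1.39e-06), and it was 8.69 in replicate 2 alone and 5.42 in replicate 4 alone. Of the 81 Cntn2 UMIs in RGC-like cells of replicate 4, 39 and 17 came from 2 cells. Their excitatory neuron markers summed to 7121 and 3768 CPM, against a median of 488 in RGC-like cells of that library. With the highest cell of each class and library set to 0, an alternative chosen after seeing the data, the log2 fold change was 7.18 (adjusted p = 1.47e-07). In the mean levels Cntn2 was highest in excitatory neuron-like cells (310.2 ± 40.8 CPM, SD), followed without overlap by Cajal-Retzius-like cells (260.1 ± 23.3), which are early-born neurons of the marginal zone.

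Cntn1 (chr15:92051152-92341967), which binds tenascin R and the receptor phosphatase Ptprz1 and takes part in the junctions beside nodes of Ranvier, was low in both progenitor classes. It was at 0.928 and 1.15 CPM in RGC-like cells and at 1.78 and 0.946 in IPC-like cells, ranges that overlapped. In excitatory neuron-like cells it was at 57.0 and 67.2 CPM. The log2 fold change was 6.09 ± 0.72 against RGC-like cells (adjusted p = 1.82e-05) and 5.67 ± 0.75 against IPC-like cells (adjusted p = 0.000102), while the value for IPC-like against RGC-like cells was 0.41 ± 1.21 (adjusted p = 0.832). The IPC-like level rested on few UMIs, 9 and 6 in all, and 9 and 5 of them came from 1 cell in each library.

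Cntn5 (chr9:9634223-10904775), a contactin known from auditory and retinal circuits, was at 4.51 and 3.82 CPM in RGC-like cells, at 40.3 and 59.1 in IPC-like cells and at 99.0 and 213 in excitatory neuron-like cells. The ranges did not overlap. It was higher in IPC-like than in RGC-like cells by 3.68 ± 1.08 (adjusted p = 0.0206) and in excitatory neuron-like than in RGC-like cells by 5.47 ± 1.10 (adjusted p = 0.00109). The further difference of 1.79 ± 0.88 between excitatory neuron-like and IPC-like cells was not called (adjusted p = 0.134), but was with the library as a block (1.71, adjusted p = 0.0376). Both libraries ordered the 3 classes alike, though the excitatory neuron-like level of replicate 4 was over that of replicate 2.

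Cntn3 (chr6:102163304-102564614), an axonal contactin whose role in the cortex is little described, was the contactin with its highest level among these 4 classes in progenitors. It was at 55.9 and 44.9 CPM in RGC-like cells, at 11.7 and 8.36 in IPC-like cells and at 35.7 and 31.7 in excitatory neuron-like cells. IPC-like cells were thus lowest in both libraries. The level was lower in IPC-like than in RGC-like cells by 2.25 ± 0.59 on the log2 scale (-2.25, adjusted p = 0.0115) and higher in excitatory neuron-like than in IPC-like cells by 1.90 ± 0.58 (adjusted p = 0.0223). For excitatory neuron-like against RGC-like cells the value was -0.35 ± 0.50 (adjusted p = 0.583).

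Cntn4 (chr6:105677632-106700141), which binds the amyloid precursor protein and is known from olfactory axon sorting, and Cntn6 (chr6:104492662-104863406), a contactin of cerebellar and cortical neurons, were low in these classes. Cntn4 was at 6.50 and 7.45 CPM in RGC-like cells, at 4.15 and 2.996 in IPC-like cells and at 21.9 and 8.69 in excitatory neuron-like cells. Its log2 fold change of 1.35 ± 0.39 between excitatory neuron-like and RGC-like cells was called (adjusted p = 0.0102), but in only 9 of 14 alternatives, and in 3 of them the direction turned. It was 1.97 in replicate 2 alone and 0.47 in replicate 4 alone. Against IPC-like cells it was 2.24 ± 0.45 (adjusted p = 0.00216), and 10 of 14 alternatives called it. Of the Cntn4 UMIs in excitatory neuron-like cells, 50% or more came from 2 cells in replicate 2 and from 4 in replicate 4. Cntn6 was at 9.68 and 8.31 CPM in RGC-like cells, at 1.38 and 0.631 in IPC-like cells and at 0.971 and 10.1 in excitatory neuron-like cells. The libraries differed most for Cntn6 in excitatory neuron-like cells, and none of its 3 comparisons along this lineage was called by edgeR (unadjusted p = 0.589, 0.0184 and 0.0367). For IPC-like against RGC-like cells Cntn6 was at -3.08 ± 1.11 (adjusted p = 0.0540), and 7 of 12 alternatives called it. For excitatory neuron-like against IPC-like cells it was at 2.64 ± 1.11 (adjusted p = 0.0856), and 3 of 12 did.

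In the step from RGC-like to IPC-like cells, 2 of the 10 genes were higher (16.3% of all genes were) and 2 were lower (17.0% were). Beside Cntn2, Cntn5 and Cntn3 the call was Cntnap3, at 0.398 and 2.10 CPM in RGC-like cells and 0.197 and 0 in IPC-like cells. It rested on 25 UMIs against 1, a ratio of 15.8 with a counting interval from 2.59 to 650, 4 of 13 alternatives called it, and its adjusted p = 0.0467 became 0.0559 with the library as a block. In the step from IPC-like to excitatory neuron-like cells, 6 of the 10 were higher (19.6% of all genes were, and 17.7% were lower). They were Cntn1, Cntn2, Cntn3, Cntn4, Cntnap2 and Cntnap4.

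Cntnap2 (chr6:45060061-47301393), the partner of Cntn2 at axons and a gene linked to autism and epilepsy, was at 38.3 and 33.5 CPM in RGC-like cells, at 17.0 and 31.4 in IPC-like cells and at 125 and 174 in excitatory neuron-like cells. The first 2 ranges did not overlap, yet their difference of -0.47 ± 0.41 was not called (adjusted p = 0.426). Excitatory neuron-like cells were higher than RGC-like cells by 2.29 ± 0.41 (adjusted p = 0.000511) and than IPC-like cells by 2.76 ± 0.43 (adjusted p = 0.000327). Cntnap4 (chr8:112569798-112882707), known from transmission at interneuron synapses, was at 59.5 and 70.2 CPM in RGC-like cells, at 25.9 and 22.2 in IPC-like cells and at 77.5 and 105 in excitatory neuron-like cells. It was called for excitatory neuron-like against IPC-like cells (2.07 ± 0.62, adjusted p = 0.0208) and not against RGC-like cells (0.73 ± 0.58, adjusted p = 0.308). Among excitatory neuron-like cells Cntnap5c (chr17:57769074-58417953), a little-studied rodent gene, was at 3.22 and 4.28 CPM, with 63 and 95 UMIs in all, and Cntnap3 (chr13:64737591-64904029) at 0.153 and 0.180 CPM, with 3 and 4 UMIs. Cntnap3 in excitatory neuron-like cells was called lower than in RGC-like cells (-2.65 ± 0.74, adjusted p = 0.0115), on 7 against 25 UMIs, a ratio of 8.28 with a counting interval from 3.48 to 22.7. It was -1.05 in replicate 2 alone, with 3 UMIs in each class, and -3.17 in replicate 4 alone.

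MGE interneuron-like cells were compared with the excitatory lineage next. Against excitatory neuron-like cells 4 of the 10 genes were higher (7.94% of all genes were) and 1 was lower (13.3% were). The higher genes were Cntnap3, Cntnap5c, Cntnap4 and Cntn4, and the lower one was Cntn2. Cntnap3 and Cntnap5c were in the test only through their level in MGE interneuron-like cells, so nothing is read from them in the counts, and of the other 8 genes 2 were higher. Against RGC-like cells 8 of the 10 were higher (25.8% of all genes were, and 26.9% were lower), and 6 of 8 without Cntnap3 and Cntnap5c. Median depth was 23451 and 10880 UMIs in MGE interneuron-like cells, against 32858 and 24076 in excitatory neuron-like cells.

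Cntnap3, a contactin-associated protein known from basal ganglia and interneuron circuits, was at 263 and 193 CPM in MGE interneuron-like cells. None of the other 6 tested classes was above 2.10 CPM in a library, and cells without a class were at 7.84 and 0 CPM, on 2 UMIs. Striatal projection neuron-like cells, too few in replicate 2, were at 52.1 CPM in replicate 4, where 39 of 58 UMIs came from 1 cell. The log2 fold change was 10.18 ± 0.49 against excitatory neuron-like cells (adjusted p = 7.82e-07) and 7.54 ± 0.42 against RGC-like cells (adjusted p = 4.88e-07), and 15 of 15 alternatives called each, the one without a filter on low counts among them. As a ratio of UMIs the first was 1371, with a counting interval from 661 to 3428. In CGE interneuron-like cells Cntnap3 had 0 UMIs in both libraries, so that MGE interneuron-like cells were at least 7.004-fold higher in replicate 2 and at least 18.5-fold higher in replicate 4, against a floor of 3 UMIs per library. That class was too small in replicate 2 for the main test, and Cntnap3 was called higher in MGE interneuron-like cells in each of the 3 alternatives that allowed one (adjusted p = 0.00167, 0.00183 and 0.000684).

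Cntnap5c was at 752 and 731 CPM in MGE interneuron-like cells, the narrowest spread of the contactin-associated proteins there (742 ± 14.9, SD). The log2 fold change was 7.55 ± 0.58 against excitatory neuron-like cells (adjusted p = 3.41e-06) and 7.56 ± 0.59 against RGC-like cells (adjusted p = 1.09e-06), and the second was 10.57 in replicate 2 alone and 6.75 in replicate 4 alone. Both were called in 15 of 15 alternatives, the one without a filter among them. In RGC-like cells 4 UMIs were counted in replicate 2 and 80 in replicate 4, of which 35 and 33 came from 2 cells. The GABAergic neuron markers of those cells summed to 3365 and 1359 CPM, against a median of 77.9 in that library. CGE interneuron-like cells were at 1350 and 773 CPM, and 50 of their 108 UMIs in replicate 2 came from 1 of 5 cells. In the 3 alternatives in which the classes could be tested, the log2 fold change of MGE over CGE interneuron-like cells was 0.67, 0.68 and 0.98, the opposite order, and was not called (adjusted p = 0.395 to 0.649). Cntnap5c has close relatives in Cntnap5a and Cntnap5b, so a part of its UMIs may be uncertain.

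Cntnap4 was at 768 and 937 CPM in MGE interneuron-like cells and at 1924 and 985 in CGE interneuron-like cells, where 104 of 154 UMIs in replicate 2 came from 1 of 5 cells. Tested in the same 3 alternatives, MGE over CGE interneuron-like cells gave 0.33, 0.32 and 0.56, the opposite order, with no call (adjusted p = 0.827 to 0.942). Cntnap4 was higher in MGE interneuron-like than in excitatory neuron-like cells by 3.16 ± 0.62 (adjusted p = 0.00334) and than in RGC-like cells by 3.89 ± 0.64 (adjusted p = 0.000319). Unlike Cntnap3 and Cntnap5c it had a level in every class with at least 10 cells in each library, from 14.4 CPM upwards. Cntnap2 was at 414 and 298 CPM in MGE interneuron-like cells, 3.48 ± 0.44 over RGC-like cells (adjusted p = 3.74e-05). The difference of 1.19 ± 0.40 from excitatory neuron-like cells was not called (adjusted p = 0.0530), but was with the library as a block (1.24, adjusted p = 0.0274), and 9 of 15 alternatives called it.

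Of the contactins, Cntn2 was lower in MGE interneuron-like than in excitatory neuron-like cells by 4.39 ± 0.57 on the log2 scale (-4.39, adjusted p = 0.000188), at 12.8 and 18.2 CPM. Cntn1 was at 168 and 146 CPM in MGE interneuron-like cells, higher than in RGC-like cells by 7.36 ± 0.74 (adjusted p = 6.70e-06). Its difference of 1.28 ± 0.50 from excitatory neuron-like cells was not called (adjusted p = 0.0936), though 7 of 15 alternatives called it. Cntn4 was at 46.6 and 50.9 CPM, close in both libraries, and higher than in excitatory neuron-like cells by 1.62 ± 0.40 (adjusted p = 0.0127) and than in RGC-like cells by 2.97 ± 0.44 (adjusted p = 0.000136). The first difference was 1.04 in replicate 2 alone and 2.48 in replicate 4 alone. Cntn5 was called higher than in RGC-like cells (4.70 ± 1.14, adjusted p = 0.00429), but 178 of its 195 UMIs in MGE interneuron-like cells of replicate 4 (91.3%) came from 1 cell. Without the highest cells the value was 2.13 and the call was lost (adjusted p = 0.119), and against excitatory neuron-like cells the value went from -0.77 (adjusted p = 0.619) to a call at -3.54 (adjusted p = 0.00783). The call of Cntn2 against RGC-like cells (1.90 ± 0.73, adjusted p = 0.0457) held in 8 of 15 alternatives. Cntn3 was at 21.7 and 14.6 CPM and Cntn6 at 18.5 and 2.73 CPM in MGE interneuron-like cells, neither with a call. For Cntn3 15 of 27 and 12 of 16 UMIs came from 1 cell in each library, and 7 of 15 alternatives called it lower than in RGC-like cells, such as the one without the highest cells (-2.58, adjusted p = 0.0111).

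**Figure D2:**
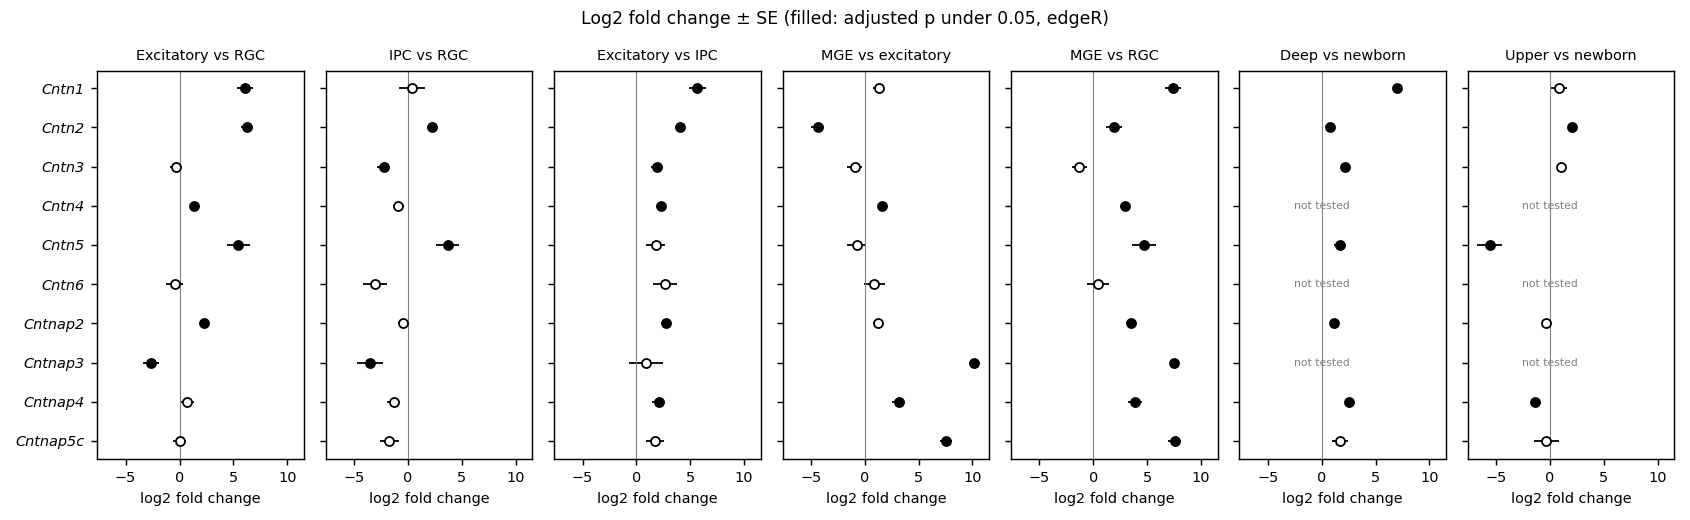
Log2 fold change ± SE of each gene in 7 comparisons of classes or sub-classes, with filled points for an adjusted p-value under 0.05 in edgeR's quasi-likelihood test. The farthest point is Cntnap3 between MGE interneuron-like and excitatory neuron-like cells (10.18), and Cntn2 is the one filled point below 0 in that comparison.

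Within the excitatory neuron-like cells, 438 newborn-like, 304 deep-layer-like and 187 upper-layer-like cells entered a separate fit over 12699 genes, and 546 cells had no sub-class. The fit tested 7 of the 10 genes, since Cntn4, Cntn6 and Cntnap3 were too low. Cntn1 passed through deep-layer-like cells alone, so nothing is read from it in the count for deep-layer-like cells. Cntnap5c reached the level the filter asks for in 4 of 6 sums, in both libraries for deep-layer-like cells only. In deep-layer-like against newborn-like cells 6 of the 7 were higher (22.5% of all genes were, and 19.7% were lower), Cntn1 among them. The gene without a call was Cntnap5c (1.72 ± 0.75, adjusted p = 0.0961). In upper-layer-like against newborn-like cells 1 of the 7 was higher (5.39% of all genes were) and 2 were lower (5.19% were).

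Cntn1 showed the widest difference, at 2.03 and 0.627 CPM in newborn-like, 133 and 164 in deep-layer-like and 3.31 and 0.551 in upper-layer-like cells. Deep-layer-like cells were higher than newborn-like cells by 7.01 ± 0.34 (adjusted p = 8.33e-07), which 12 of 12 alternatives called, the one without a filter among them, and the upper-layer-like difference was 0.81 ± 0.79 (adjusted p = 0.599). Cntn2 had another order, at 127 and 129 CPM in newborn-like, 229 and 187 in deep-layer-like and 493 and 515 in upper-layer-like cells. It was higher than in newborn-like cells by 1.996 ± 0.12 in upper-layer-like (adjusted p = 7.39e-05), a call lost with split UMIs (0.54, adjusted p = 0.174), and by 0.80 ± 0.12 in deep-layer-like cells (adjusted p = 0.000656). The value in deep-layer-like cells turned to -1.96 (adjusted p = 5.22e-06) in that setting, with one share of the UMIs used to make the classes and the remaining share to test them. The 2 deep-layer-like sub-clusters themselves held 272 and 265 CPM (led by Rgs6, Kirrel3, Ldb2, Nin and Grik3) and 88.8 and 45.3 CPM (led by Rgs6, Hs3st4, Sgcz, Sybu and Pdzd2).

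Cntnap4 was at 33.9 and 36.2 CPM in newborn-like, 189 and 191 in deep-layer-like and 16.1 and 9.36 in upper-layer-like cells. It was higher than in newborn-like cells by 2.54 ± 0.14 in deep-layer-like cells (adjusted p = 1.45e-06) and lower in upper-layer-like cells (-1.40 ± 0.20, adjusted p = 0.00251), a call that held in 6 of 11 alternatives and whose direction turned to 1.48 at a clustering resolution of 2. Cntn5 was at 126 and 45.5 CPM in newborn-like, 126 and 383 in deep-layer-like and 1.66 and 1.65 in upper-layer-like cells. The upper-layer-like level was lower (-5.62 ± 1.14, adjusted p = 0.0150), on 7 against 847 UMIs, a ratio of 47.4 with a counting interval from 22.9 to 118. This call held in 8 of 11 alternatives, and the direction turned to 1.19 at a clustering resolution of 2. Of the 847 newborn-like UMIs, 419 came from replicate 2 cells of sub-cluster 11, described below. The part of that sub-cluster in the differences of Cntn5 from newborn-like cells was not tested. The deep-layer-like difference was called (1.71 ± 0.53, adjusted p = 0.0283), but was 0.10 in replicate 2 alone and 3.18 in replicate 4 alone. Cntn3 was at 8.80 and 15.7 CPM in newborn-like and 69.0 and 33.9 in deep-layer-like cells (2.12 ± 0.35, adjusted p = 0.00121), with 3.06 in replicate 2 alone and 1.22 in replicate 4 alone. Cntnap2 was at 54.8 and 52.8 CPM in newborn-like and 71.0 and 156 in deep-layer-like cells (1.19 ± 0.31, adjusted p = 0.0133), with 0.47 in replicate 2 alone and 1.68 in replicate 4 alone.

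**Figure D3:**
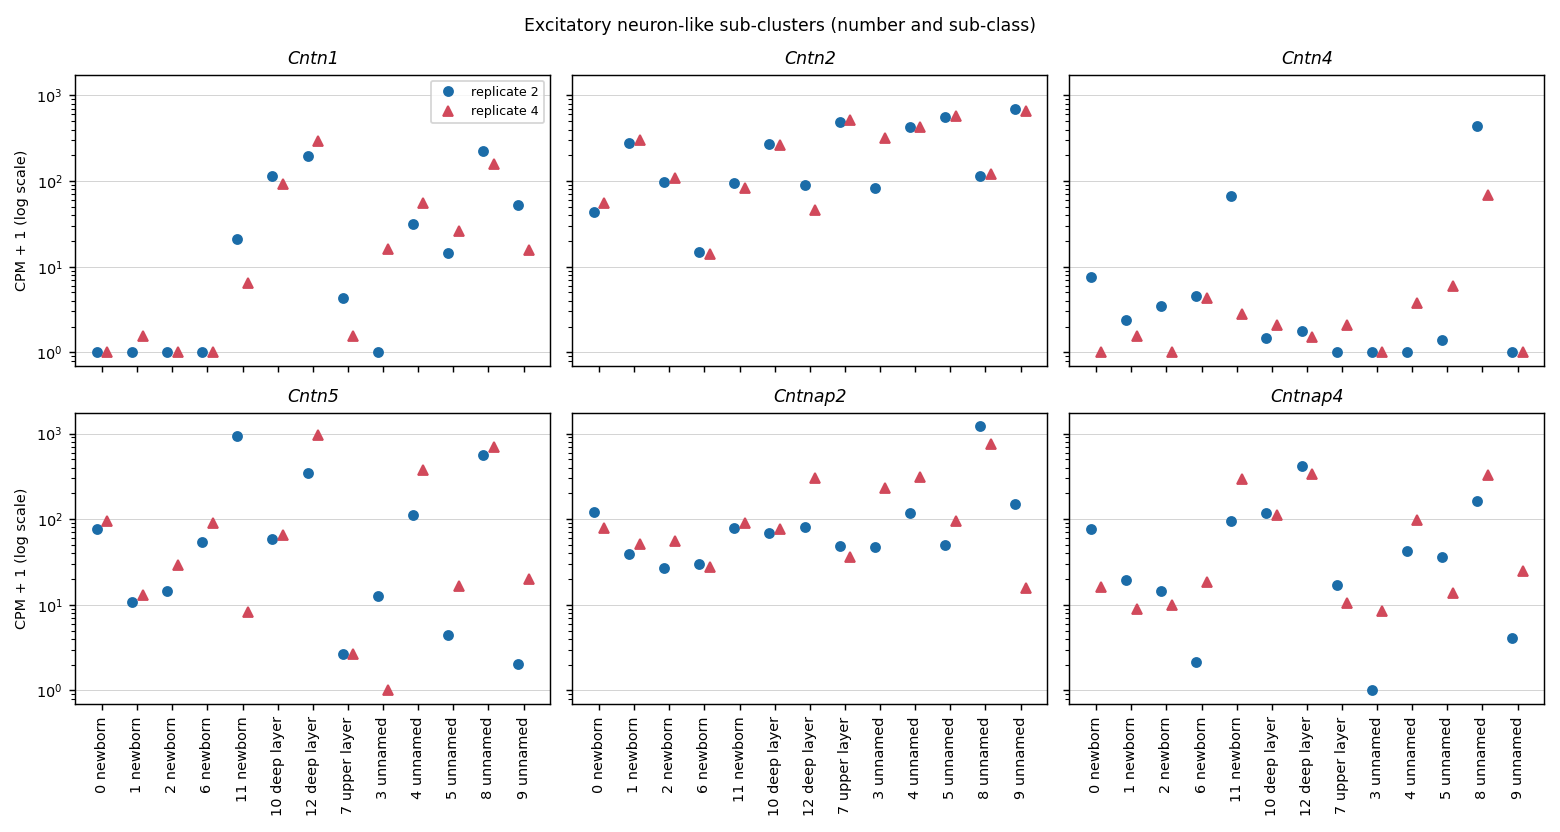
Level of 6 genes (CPM + 1, logarithmic axis) in the 13 excitatory neuron-like sub-clusters with at least 10 cells in each library, with 1 point per library. Sub-clusters are ordered by sub-class. Cntn1 lay under 1 CPM in 4 of the 5 newborn-like sub-clusters and between 91.2 and 297 CPM in both deep-layer-like ones, and sub-cluster 8 carried high Cntn4, Cntn5 and Cntnap2 together.

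Sub-clusters without a sub-class held some of the highest levels. Sub-cluster 8, of 26 and 110 cells and led by Tafa1, Tafa2, Lhfpl3, Lingo2 and Epha6, was at 1230 and 763 CPM of Cntnap2, at 566 and 705 of Cntn5, at 436 and 67.9 of Cntn4 and at 17.1 and 91.9 of Cntn6. In replicate 2 the highest cell for each gene gave 47.6% of its Cntnap2, 52.8% of its Cntn5 and 43.2% of its Cntn4 UMIs. It held 382 of the 429 Cntn4 UMIs of excitatory neuron-like cells in replicate 2 and 214 of the 225 Cntn6 UMIs in replicate 4. Its cells made up 26 of 589 and 110 of 886 of the class, and the part of this in the spread between libraries was not tested. Among sub-clusters with at least 10 cells in each library Cntn2 was highest in sub-cluster 9, at 687 and 652 CPM, which Cdh12, Tafa2, Btbd11, Ldb2 and Kirrel3 led. In the newborn-like sub-cluster 11, led by Zic1, Cdh20, Rmst, Pcdh11x and Tmem163, Cntn5 was at 927 CPM in replicate 2 and at 7.23 in replicate 4, and 178 of the 419 UMIs in replicate 2 came from 1 of 17 cells. Levels within sub-clusters were not tested.

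MGE interneuron-like cells formed a sub-cluster with 34 and 35 members led by Sst, Dpp10, Nxph2, Nxph1 and Cntnap3, and another with 20 and 46, led by Nxph1, Dpp10, Nxph2, Lhx6 and Maf. The first was at 246 and 247 CPM of Cntn1, 529 and 504 of Cntnap2 and 416 and 658 of Cntnap4. The second was at 24.9 and 4.38 CPM of Cntn1, 206 and 8.77 of Cntnap2 and 1410 and 1331 of Cntnap4. Single cells weighed on the lower genes, with 59 of the 91 Cntnap2 and 7 of the 11 Cntn1 UMIs of the second in replicate 2 from the highest cell of each gene, and 146 of the 324 Cntnap2 UMIs of the first in replicate 4. Cntn4 ran with Cntnap4, at 23.6 and 29.5 CPM in the first and 88.2 and 81.1 in the second.

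Cells of this class with at least 1 UMI of Sst, the gene of somatostatin, were compared with those without, 23 against 31 cells in replicate 2 and 26 against 55 in replicate 4. The study is concerned with Sst-positive interneurons, and this comparison asked whether the adhesion genes differed with Sst. The fit over 7638 genes tested 9 of the 10, without Cntn6, and Cntn2, Cntn3 and Cntn5 passed through Sst-positive cells and Cntn4 through Sst-negative cells. Only Cntn1 was called, and it was higher (0.223% of all genes were).

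Cntn1 was at 315 and 297 CPM in Sst-positive and at 41.8 and 42.9 in Sst-negative cells, a log2 fold change of 2.83 ± 0.23 (adjusted p = 0.00240). The groups were far apart and the libraries nearly equal, and 11 of 14 alternatives called it. Of the Sst-positive cells 14 of 23 and 11 of 26 held a Cntn1 UMI, and 50 of 181 and 46 of 133 UMIs came from 1 cell. The setting without the highest cell was not run for the Sst comparison. The call of Cntn1 was lost with at most 5% mitochondrial UMIs (1.34, adjusted p = 0.497), at a clustering resolution of 0.5 (2.65, adjusted p = 0.0516) and when a mixed sub-cluster was counted with the class (2.65, adjusted p = 0.0512). That sub-cluster, left out of the class, held 23 cells of replicate 4, was led by Sst, Sgcz, Calb1, Samd5 and Nr2f2, had raised markers of both MGE and CGE interneurons, and was at 105 CPM of Cntn1 and 0 of Cntnap3. The groups also lay in different sub-clusters, since 20 of 23 and 20 of 26 Sst-positive cells were in the Sst-led one, against 14 of 31 and 15 of 55 Sst-negative cells, and Sst and sub-cluster were not told apart. Cntnap4 was at 426 and 628 CPM in Sst-positive and at 1062 and 1149 in Sst-negative cells (-1.09 ± 0.25, adjusted p = 0.148). Cntnap5c was at 645 and 396 against 844 and 962 CPM (-0.81 ± 0.27, adjusted p = 0.369). Cntnap2 was at 626 and 646 CPM in Sst-positive and at 233 and 59.8 in Sst-negative cells (2.10 ± 0.49, adjusted p = 0.155), and was called with the library as a block (2.29, adjusted p = 0.0337). Cntnap3 was at 322 and 335 against 212 and 95.1 CPM (1.08 ± 0.33, adjusted p = 0.323).

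Cntn5 had 0 UMIs in Sst-negative cells of both libraries and 38.3 and 436 CPM in Sst-positive cells, at least 8.55-fold and at least 94.7-fold higher against a floor of 3 UMIs per library. Its UMIs came from 3 cells in each library, and 178 of 195 in replicate 4 from 1 of them. It was not called (adjusted p = 0.136), but was with the library as a block (adjusted p = 0.000472), as were 3 of the 9 genes and 78 of all genes in place of 1 and 17. Cntn5 entered this fit through Sst-positive cells alone, and nothing is read from its call under the block. Sst-positive cells were also deeper, with medians of 25713 and 15037 UMIs against 23396 and 9006. Whether a cell shows an Sst UMI depends on depth, and the part of depth in these differences was not tested beyond the alternatives.

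**Figure D4:**
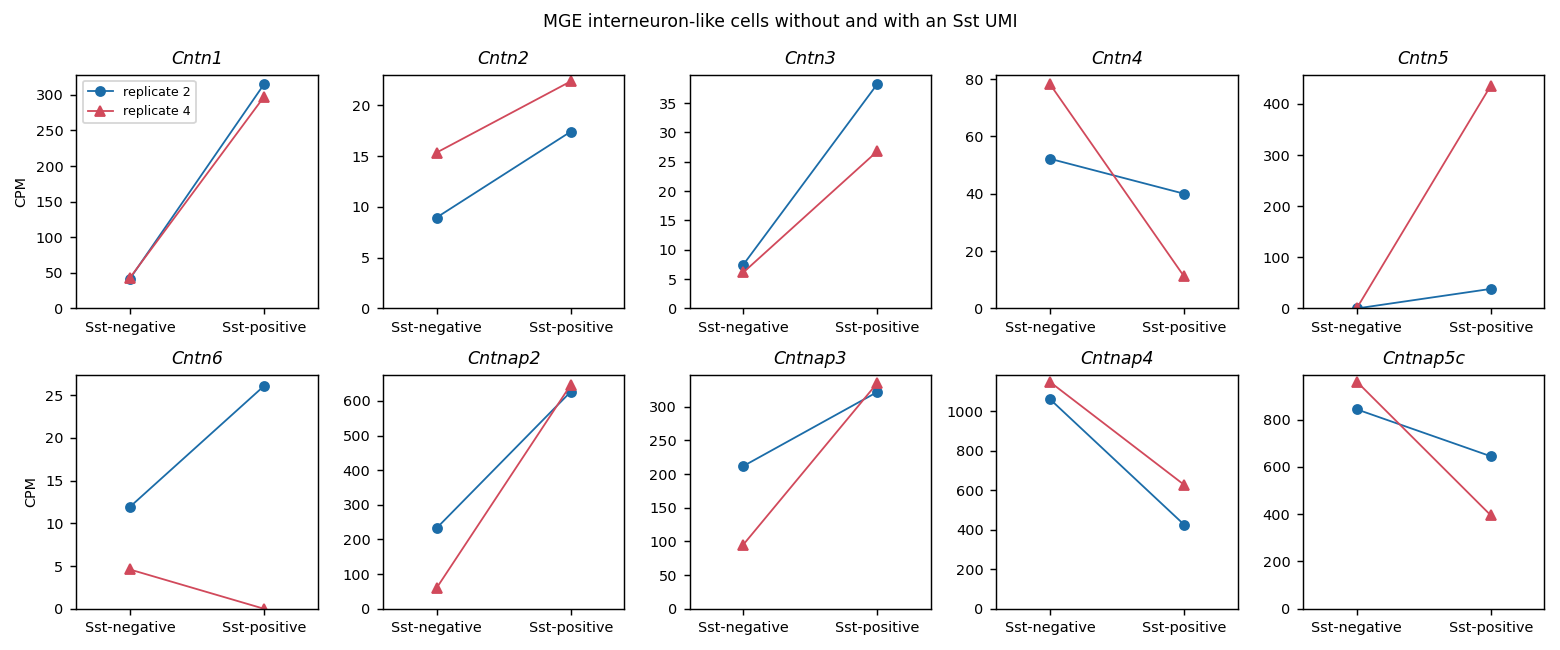
Level of each gene (CPM, axes from 0 that differ between panels) in MGE interneuron-like cells without and with an Sst UMI, with 1 line per library. The lines of Cntn1 nearly coincide, from 41.8 and 42.9 CPM without Sst to 315 and 297 with it, and those of Cntnap4 run from 1062 and 1149 to 426 and 628 CPM, a difference that was not called.

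How widely each gene was spread over cells was measured with every cell thinned to 5000 UMIs, which left out 192 of 3153 cells. In MGE interneuron-like cells 81.1% and 74.3% had a Cntnap4 UMI, 69.8% and 81.1% a Cntnap5c UMI and 49.1% and 28.4% a Cntnap3 UMI. Without thinning these shares were 87.0% and 85.2%, 92.6% and 84.0%, and 64.8% and 40.7%. At full depth 53 of 54 and 79 of 81 cells of the class held Cntnap4 or Cntnap5c, and 31 and 20 held all of Cntnap3, Cntnap4 and Cntnap5c. Cntn2 was found in 61.9% and 55.4% of thinned excitatory neuron-like cells, in 5.77% and 8.23% of IPC-like cells and in 0.922% and 1.59% of RGC-like cells. Cntnap2 reached 21.4% and 26.1% of thinned excitatory neuron-like cells. Intervals and floors cover counting error only.

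Free RNA can put UMIs into cells that do not make them, so the same shares were read in endothelial-like cells, which should lack these genes. Of 9 and 18 such cells, with medians of 16901 and 16685 UMIs, 0 held Cntn1, Cntn2 or Cntnap3, which at 9 and 18 cells allows shares up to 33.6% and 18.5% (exact Clopper-Pearson limits), and 2 and 3 held Cntnap4. Barcodes left out for under 1000 genes, 442 and 423 of them, were at 163 and 72.6 CPM of Cntn2, at 27.1 and 4.09 of Cntnap4 and at 7.14 and 1.02 of Cntnap3. The Cntn2 level of RGC-like cells lay under that of these barcodes in both libraries, and the part of free RNA in the low levels was not tested.

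**Figure D5:**
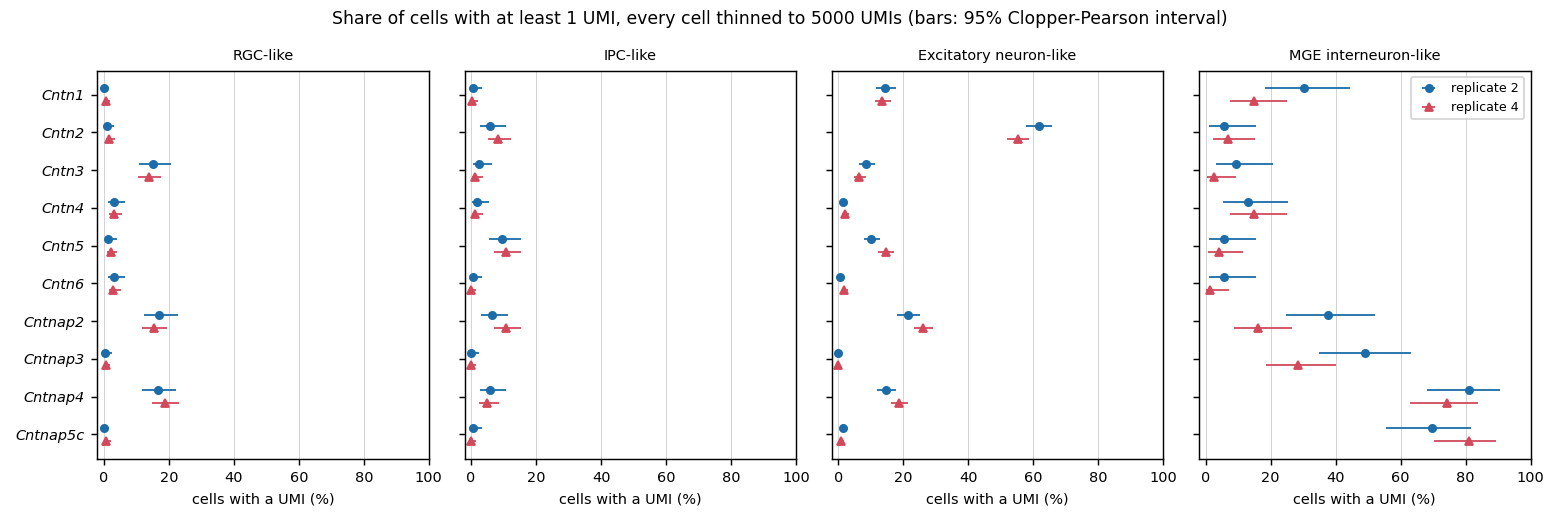
Share of cells (percent) with at least 1 UMI of each gene in 4 classes after thinning to 5000 UMIs per cell, with 95% Clopper-Pearson intervals for counting error and 1 point per library. Cntn2 in excitatory neuron-like cells was at 61.9% and 55.4%. In MGE interneuron-like cells Cntnap4 and Cntnap5c were at 69.8% to 81.1%, beside 49.1% and 28.4% for Cntnap3.

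The genes differed in how many cells carried their UMIs. In excitatory neuron-like cells 50% of the Cntn2 UMIs came from the 101 and 129 highest cells, and the top cell gave 0.890% and 1.26%. For Cntn1 these were 27 and 35 cells, for Cntnap4 19 and 37, for Cntnap2 11 and 27, for Cntn3 13 and 17, for Cntn5 8 and 17, and for Cntn4 2 and 4. In MGE interneuron-like cells Cntnap5c needed 12 and 13 cells, Cntnap4 7 and 12, Cntnap3 7 and 5, Cntnap2 4 and 2, Cntn4 3 and 4, Cntn1 3 and 3, and Cntn3 1 and 1.

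The order of mean levels over the 7 tested classes differed by gene. Cajal-Retzius-like cells, 16 and 24 in number, led for Cntnap2 (1742 and 3122 CPM) and Cntn4 (84.7 and 96.3 CPM), in both cases without overlap with the next class, which was MGE interneuron-like. Hem or choroid plexus-like cells, 51 and 44 in number, led for Cntn1 (332 and 196 CPM), ahead of MGE interneuron-like cells without overlap. For Cntn5 Cajal-Retzius-like (137 and 449 CPM) and hem or choroid plexus-like cells (232 and 343 CPM) overlapped at the top. In Cajal-Retzius-like cells 35 of 55 and 165 of 317 Cntn5 UMIs came from 1 cell. For Cntn3 the first 4 classes, Cajal-Retzius-like, RGC-like, hem or choroid plexus-like and excitatory neuron-like, each overlapped with the next, and for Cntn6 all neighbours overlapped down to hem or choroid plexus-like cells, which had 0 UMIs. MGE interneuron-like cells led without overlap for Cntnap3, Cntnap4 and Cntnap5c.

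The other contactin-associated proteins Cntnap1, Cntnap5a and Cntnap5b and known binding partners were taken as a list of 22 genes, of which 20 were tested in the fit of classes. In excitatory neuron-like against RGC-like cells 12 were higher and 2 lower (29.5% and 26.6% of all genes were), and the higher ones included the family gene Cntnap5a (7.41 ± 0.87, adjusted p = 1.71e-05), the adhesion molecule Chl1 (7.35 ± 0.89, adjusted p = 2.15e-05) and the family gene Cntnap5b (6.72 ± 0.70, adjusted p = 6.37e-06). The Shaker-type potassium channel Kcna1 had 0 UMIs in RGC-like cells and was at least 30.7-fold and at least 35.4-fold higher. The lower ones were the matrix protein Tnc (-6.85 ± 0.69, adjusted p = 8.45e-06) and Aplp2 of the amyloid precursor family (-0.68 ± 0.12, adjusted p = 0.000589). Between MGE interneuron-like and excitatory neuron-like cells 1 was higher in the former, Aplp2 (0.42 ± 0.13, adjusted p = 0.0428), and 6 were lower (7.94% and 13.3% of all genes were). Among the lower ones were Kcna1 (on 1 against 464 UMIs, a ratio of 26.1 with a counting interval from 4.65 to 1031), Ptprz1 (-2.56 ± 0.60, adjusted p = 0.00923), the adhesion molecule Nfasc (-2.34 ± 0.43, adjusted p = 0.00217) and the receptor phosphatase Ptprg (-2.01 ± 0.23, adjusted p = 8.55e-05).

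In MGE interneuron-like against RGC-like cells 11 of the listed genes were higher and 5 lower (25.8% and 26.9% of all genes were). Chl1 (7.35 ± 0.89, adjusted p = 2.86e-05), Cntnap5a (6.70 ± 1.06, adjusted p = 0.000235), tenascin R or Tnr (6.14 ± 0.51, adjusted p = 1.71e-06) and the secreted synaptic protein Lgi1 (6.12 ± 0.70, adjusted p = 3.11e-05) led the higher ones. Tnc had 0 UMIs in MGE interneuron-like cells and was at least 37.4-fold and at least 28.5-fold lower. Ptprz1 (-3.01 ± 0.60, adjusted p = 0.00127), Ptprg (-2.04 ± 0.23, adjusted p = 1.84e-05) and the membrane scaffold Epb41l3 (-1.40 ± 0.33, adjusted p = 0.00391) were lower too. Of the 20 listed genes 8 were higher and 5 lower in IPC-like against RGC-like cells (16.3% and 17.0% of all genes were), and 12 and 2 in excitatory neuron-like against IPC-like cells (19.6% and 17.7%). Against newborn-like cells 12 and 3 were in deep-layer-like (22.5% and 19.7%) and 4 and 3 in upper-layer-like cells (5.39% and 5.19%). In the Sst comparison edgeR called 0 of 17 tested genes of the list, beside 17 of all 7638 genes. At an unadjusted p under 0.05 in edgeR were 2 of the list, beside 713 of all 7638 genes. DESeq2 called 1 of the list, beside 47 of all genes.

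The genes most alike to each member were those with the highest Pearson correlation of log2(CPM + 1) over the 14 sums, which share libraries and depth, so the values are a description. They were Lgi1, Sema6d and Gm32743 for Cntn1 (0.93 to 0.92), Basp1, 5730522E02Rik and Sh2d4b for Cntn2 (0.97 to 0.95), Zfp239, Setd6 and Nr2c2ap for Cntn3 (0.77 to 0.75), and Mgat4b, Psd2 and Gm13830 for Cntn4 (0.94). Catsper2, Acer2 and Sec22c were nearest to Cntn5 (0.90 to 0.89) and Fam124a, Thumpd1 and Gm28791 to Cntn6 (0.82 to 0.76). Nanos1, Clvs2 and Gm13830 were nearest to Cntnap2 (0.95 to 0.94), Gm31218, Slc32a1 and Gm35576 to Cntnap3 (0.99), Gm45904, Amph and Vwc2l to Cntnap4 (0.94 to 0.92), and Lhx6, Gm14204 and Gm47027 to Cntnap5c (0.97). Lhx6 and Slc32a1 were among the markers that named the interneuron-like classes. The correlations of Cntn3 and Cntn6 were the lowest.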

How the data were processed

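The authors deposited unnormalized UMI counts for each gene and barcode, made with Cell Ranger 7.0.0 on mm10 (submitters' processing notes). Whether intronic reads were counted is not given in the sources used here. Barcodes needed at least 1000 genes and no more than 10% mitochondrial UMIs, and Scrublet doublets (14 and 15) were left out in scanpy 1.11.5. Counts scaled to 10000 per cell were clustered (2000 variable genes without members and partners, 30 components, 20 neighbours, or 15 within GABAergic and excitatory neuron-like cells, Leiden resolution 1). Names needed at least 3 raised markers, and the scoring rule was revised after the first clusterings were seen. UMIs summed per library and class (at least 10 cells in each library) were tested with edgeR 4.0.16 (TMM, filterByExpr, quasi-likelihood, R 4.3.3) and Benjamini-Hochberg adjustment, and DESeq2 1.42.0 was an alternative. SEs were taken as the log2 fold change over the square root of the F statistic. Classes came from the same cells that were tested, so in an alternative the UMIs were split, with one share used for clustering and the remaining share for testing. Sums with equal numbers share a library, and deviations of the 4 compared classes correlated within a library by 0.141 to 0.330 over 6 pairs, so the library as a block was an alternative. In simulated data 89.5% (MGE interneuron-like against RGC-like, 12306 genes) to 100% (deep-layer-like against newborn-like, 12352 genes) of 200 changed genes were recovered, beside 7 and 19 false calls, and false calls reached 23 (excitatory neuron-like against RGC-like, 12352 genes, 94.5% recovered, and upper-layer-like against newborn-like, 12299 genes, 99.5% recovered). The simulated classes shared their means apart from the 200 changed genes, which were not among the lowest and changed by a fixed fold. No library effect was added, and far more genes differ in the data, so these rates need not hold there. Members and lists were chosen with earlier results of these data known. Named were all members, up to 4 called other family genes or partners per direction in 3 comparisons with the same sign in both libraries, the 3 genes most alike to each member, and the 5 leading genes of a described sub-cluster. An Sst-negative cell has 0 Sst UMIs.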

Additional observations from a re-analysis of the deposited data

Results flagged for a closer look

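Several levels stood out in cells that no comparison of the report used as a group in its main tests, since their lowest library lay above every library of the RGC-like, IPC-like, excitatory neuron-like and MGE interneuron-like cells. In hem or choroid plexus-like cells Cntn1 was at 196 CPM or more (highest compared level 168) and Cntn5 at 232 or more (213), with a counting interval from 211 to 255 that includes the compared level and 50% of its UMIs in 2 cells of each library. In Cajal-Retzius-like cells Cntnap2 was at 1742 CPM or more (414) and Cntn4 at 84.7 or more (50.9). In striatal projection neuron-like cells, with 1 usable library, Cntn5 was at 2323 CPM (213), Cntnap2 at 564 (414) and Cntn3 at 76.4 (55.9). There 916 of the 2586 Cntn5 UMIs and 205 of the 628 Cntnap2 UMIs came from 1 cell, and 45 of the 85 Cntn3 UMIs. In CGE interneuron-like cells of replicate 4 Cntnap4 was at 985 CPM (937) and Cntnap5c at 773 (752), with intervals for counting error that include the compared levels (874 to 1107 and 674 to 881). In replicate 2, with 5 such cells, 104 of 154 Cntnap4 and 50 of 108 Cntnap5c UMIs came from 1 cell. In the 3 alternatives that allowed a test of MGE against CGE interneuron-like cells neither gene was called, and both were on the side of MGE interneuron-like cells. The other differences were not tested.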

How the results depend on the processing

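Of 979 log2 fold changes recomputed with a test, 809 kept direction and call, 44 lost the call, 85 gained one and 41 changed direction. Which choice caused a change was not tested. Changes of direction were as follows. For excitatory neuron-like against RGC-like cells Cntn4 went to -0.14 (at least 500 genes per barcode), -0.50 (at most 5% mitochondrial UMIs) and -0.12 (split UMIs), and Cntnap5c, at 0.01 with a range from -0.31 to 4.12 over alternatives, 2 of 14 with a call, to -0.11 (DESeq2 size factors), -0.0166 (DESeq2), -0.14 (no filter), -0.0031 (compared classes alone) and -0.31 (thinned cells). For IPC-like against RGC-like cells Cntn1 went to -0.68 (5% mitochondrial), -1.06 (doublets kept), -1.04 (genes scaled within libraries), -1.12 (split UMIs) and -2.66 (without the highest cell), Cntnap2 to 0.20 (split UMIs) and Cntnap5c to 2.21 (500 genes) and 2.03 (5% mitochondrial). For excitatory neuron-like against IPC-like cells Cntnap3 went to -0.59, -1.09, -0.23, -0.32 and -0.62 (500 genes, 5% mitochondrial, resolution 0.5, resolution 2, split UMIs). With 5% mitochondrial UMIs the difference between MGE interneuron-like and excitatory neuron-like cells became 0.46 for Cntn3 and 1.18 for Cntn5, and without the highest cell Cntn6 against RGC-like cells gave -0.35. Cntn2 in deep-layer-like cells went to -0.31 (resolution 0.5) and -1.96 (split UMIs). In upper-layer-like cells Cntn1 went to -0.066, -1.07 and -1.90 (resolution 0.5, split UMIs, thinned), Cntn3 to -0.11 (split UMIs), Cntnap2 to 1.41 and 0.14 (resolution 2, thinned), Cntn5 to 1.19 and Cntnap4 to 1.48 (resolution 2), and Cntnap5c to 0.14, 0.26 and 0.41 (5% mitochondrial, resolution 0.5, resolution 2). In the Sst comparison Cntn2 went to -0.75 (5% mitochondrial) and -0.43 (doublets kept), Cntn3 to -1.01 and Cntnap2 to -0.28 (5% mitochondrial).

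Thinning, which leaves fewer genes to test, lowered the genes called from 7458 to 4684 (excitatory neuron-like against RGC-like), 4423 to 2572 (IPC-like against RGC-like), 4961 to 2877 (excitatory neuron-like against IPC-like), 2823 to 1814 (MGE interneuron-like and excitatory neuron-like), 7008 to 4070 (MGE interneuron-like against RGC-like), 5365 to 2571 (deep-layer-like) and 1343 to 788 (upper-layer-like). Split UMIs gave 2885 (deep-layer-like) and 139 (upper-layer-like), and for the latter no filter gave 2126, resolution 0.5 344, resolution 2 710 and scaling 3114. Members called went from 4 to 8 (no filter) and 2 (doublets kept) for IPC-like against RGC-like cells, from 5 to 9 (no filter) and 8 (compared classes alone, split UMIs, thinned) between MGE interneuron-like and excitatory neuron-like cells, and from 3 to 5 (no filter), 1 (resolution 0.5) and 0 (split UMIs) for upper-layer-like cells. These settings also changed how many of all genes were tested and called, so nothing is read from the counts of members. In the Sst comparison 17 genes and 1 member became 47 and 2 (DESeq2), 280 and 8 (no filter), 78 and 3 (replicate block), 6 and 0 (5% mitochondrial), 1 and 0 (resolution 0.5, and the mixed sub-cluster counted as MGE interneuron-like), 50 and 3 (split UMIs), and 73 and 4 (at least 3 Sst UMIs). The mixed sub-cluster setting and the one without the highest cell were chosen after seeing the data. The replicate block changed the calls of Cntnap3, Cntn5 and Cntnap2 given above and no other call of a member. With 1 library left out no test remained, and 61 of 146 fold changes moved by more than their SE. Newborn-like cells were not found with 500 genes per barcode and upper-layer-like cells not with doublets kept, so those values are missing. MGE against CGE interneuron-like cells could be tested in 3 alternatives only (500 genes, resolution 0.5, scaling). Cntnap3 was called in each, and Cntn1 with 500 genes and with scaling (adjusted p = 0.0177 and 0.0441). Striatal projection neuron-like cells could not be tested.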
